A study of Mus musculus with 12 samples.

Results

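The mitochondrially encoded genes were taken as all rows of the deposited raw count table whose symbol starts with mt-, which gave 37 of 77175 rows. They are 13 protein-coding genes, 2 ribosomal RNA genes and 22 transfer RNA genes, the complete gene set of the mouse mitochondrial chromosome. These genes were followed in 12 bulk RNA-seq libraries that fall into 4 groups of 3. In both tumor models the mice were of the NOD-SCID strain, which lacks its own T and B cells but keeps its myeloid, endothelial and stromal cells, and all mice received CD8+ OT-1 T cells, activated on anti-CD3/CD28 beads, whose receptor recognises a peptide of ovalbumin. Tumors were taken 2 days after the transfer. The groups were melanoma cells of B16-F10 tumors (B16-F10 carrying GCaMP6s, a calcium reporter, from a lentiviral vector with the EF1A promoter), melanoma cells of B16-F10-OVA tumors (the same with a further vector for ovalbumin), and the C57BL/6J-OT-I T cells taken from each kind of tumor. Tumor cells were sorted by GCaMP6s fluorescence and T cells were selected with CD8 beads, so cell type and way of isolation cannot be told apart. Separate mice for the replicates of a group are not stated in the labels, and p-values therefore measure only the spread between these libraries.

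The mitochondrial chromosome is a small circle present in many copies per cell. Both of its strands are transcribed into long precursors that are cut, mostly at the transfer RNAs, into messenger, ribosomal and transfer RNAs. The ribosomal RNAs and most, but not all, of the messengers receive short poly(A) tails. Its proteins are core subunits of respiratory complexes I, III and IV and of the ATP synthase, complex V, while all other subunits, the polymerase and the ribosomal proteins come from the nucleus.

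The labelled cell types were checked against marker genes first. Summed over 12 melanoma markers, levels were 23441 to 23528 CPM (counts scaled to a common library total) in tumor cells labelled B16-F10, 9993 to 10010 CPM in those labelled OVA, and at most 249 CPM in the CD8-selected libraries. The 12 T cell markers summed to 1031 to 1041 CPM in CD8-selected libraries labelled B16-F10, 917 to 919 CPM in those labelled OVA and 138 to 144 CPM in tumor cells labelled OVA. In tumor cells labelled B16-F10 they summed to at most 4.82 CPM, with 4 of the 12 at 0. Markers of other cells were high in the CD8-selected libraries: endothelial markers summed to 9995 ± 53.8 CPM (SD, n = 3) with the B16-F10 label and 9120 ± 33.1 CPM with the OVA label, and fibroblast markers to 5858 ± 53.0 and 5433 ± 44.6 CPM. Tumor cells labelled OVA held 2855 ± 11.6 CPM of macrophage and monocyte markers, 3958 ± 24.3 CPM of endothelial markers and 2257 ± 8.20 CPM of fibroblast markers, against 16.5 ± 0.544, 43.4 ± 1.30 and 214 ± 3.88 CPM with the B16-F10 label, where 3 of the 12 endothelial markers and 0 of the 12 in each other list were at 0. These markers move with the groups compared, and their part in the results on the mitochondrial genes was not tested. In bulk libraries, fewer cells of a type and less RNA per cell cannot be told apart.

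Not every mitochondrial row counts mitochondrial RNA alone, so the sequences that matter for reading the counts are shown before the values. The mouse nuclear genome holds old insertions of mitochondrial DNA, and 7 rows of the count table are nuclear copies that match a mitochondrial gene over at least 250 bases with at least 99% identity. The mt-Nd3 transcript and its copy Gm28438 differ over 345 aligned bases only by T3C (mt-Nd3 base first, position counted from 1 at the 5′ end of the transcript), shown in capitals. The sequences are those of GENCODE M21 (GRCm38), matched by Ensembl identifier.
mt-Nd3, first 120 bases: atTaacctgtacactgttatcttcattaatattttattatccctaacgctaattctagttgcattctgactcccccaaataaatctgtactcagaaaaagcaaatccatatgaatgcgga
Gm28438, first 120 bases: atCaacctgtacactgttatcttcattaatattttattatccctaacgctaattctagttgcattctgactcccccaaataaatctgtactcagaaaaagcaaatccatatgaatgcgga

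Neighbouring mitochondrial genes also share bases. The last 43 bases of mt-Atp8, in capitals, are also the first 43 of mt-Atp6, and mt-Nd4l and mt-Nd4 share 7 bases. How the authors counted reads that touch both genes of such a pair is not given in the sources used here.
mt-Atp8: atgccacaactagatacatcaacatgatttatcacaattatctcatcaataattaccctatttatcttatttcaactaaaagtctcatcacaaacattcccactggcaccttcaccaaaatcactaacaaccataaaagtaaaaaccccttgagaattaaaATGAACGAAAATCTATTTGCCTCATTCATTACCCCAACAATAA

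The libraries were made from RNA bound to poly-T beads, so a transcript's 3′ end bears on its capture. The ends are shown for mt-Cytb and mt-Nd6, the genes at opposite ends of the range of changes in CD8-selected cells described further on. The mt-Cytb transcript ends in the single base T of a stop codon, in capitals, which the poly(A) tail completes, whereas mt-Nd6 carries its full stop codon. mt-Nd4 and mt-Co3 also end in a single T and had log2 fold changes of -0.55 and -0.14 in CD8-selected cells. mt-Co1 and mt-Nd5 carry a full stop codon and changed by -0.06 and -0.80. The part of the 3′ end in these changes was not tested. mt-Nd6, a complex I subunit, is the only protein-coding member on the other strand, and since this kit does not mark strand, its reads cannot be told apart from antisense reads of the opposite precursor.
mt-Cytb, last 30 bases: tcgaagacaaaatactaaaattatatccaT
mt-Nd6, last 30 bases: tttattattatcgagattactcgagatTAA

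Mitochondrial genes took the largest share of counts in tumor cells labelled OVA and the smallest in tumor cells labelled B16-F10. The 37 rows held 1.80%, 1.78% and 1.71% of all counts in the tumor libraries labelled B16-F10 (replicates 1 to 3) and 6.42%, 6.57% and 6.53% in those labelled OVA. They held 3.35%, 3.22% and 3.37% in CD8-selected libraries labelled B16-F10 and 2.76%, 2.78% and 2.79% in those labelled OVA. The values of the 4 groups did not overlap. The OVA label went with a 3.69-fold higher share in tumor cells and with 0.838 times the share in CD8-selected cells. Each of the 4 comparisons had a two-sided exact permutation p of 0.1 (adjusted 0.1), the smallest that 3 against 3 libraries allow. The difference between the 2 OVA effects, -5.28 percentage points, had an exact permutation p of 0.005 over 400 relabellings within fractions, also the smallest possible. This p, like others of its kind below, is set against no label effect in either fraction, not against equal effects.

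The share was made up almost wholly of messenger and ribosomal RNA rows. Protein-coding genes took 1.67% ± 0.0394, 5.95% ± 0.0696, 3.01% ± 0.0772 and 2.62% ± 0.0140 of all counts (tumor cells labelled B16-F10 and OVA, then CD8-selected cells labelled B16-F10 and OVA; SD, n = 3 each, an order kept below). The ribosomal RNA genes took 0.0970% ± 0.00947, 0.557% ± 0.00449, 0.308% ± 0.00667 and 0.158% ± 0.000862. The 7 nuclear copy rows, which stand outside the 37, took another 0.248% ± 0.0123, 0.691% ± 0.00784, 0.297% ± 0.0209 and 0.303% ± 0.0253. With them added, the order of the groups was the same, at 2.01%, 7.20%, 3.61% and 3.08%.

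**Figure D1:**
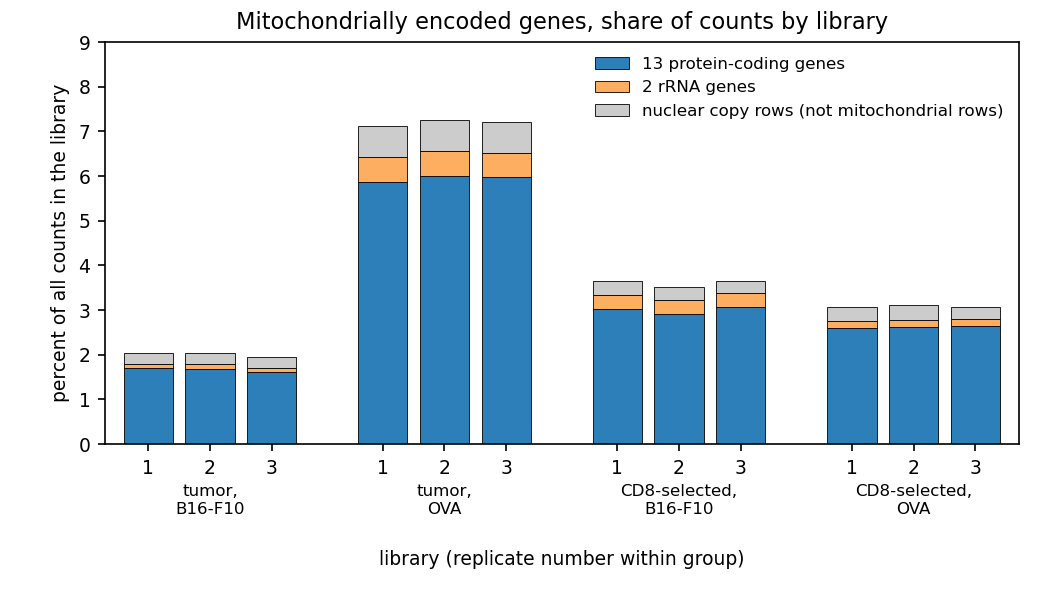
Share of all counts per library (vertical axis, percent, from 0) for the 12 libraries in their 4 groups, as stacked bars for the 13 protein-coding genes, the 2 rRNA genes and the 7 nuclear copy rows. The 3 tumor libraries labelled OVA stand above all others, with 6.42% to 6.57% on mitochondrial rows.

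In tumor cells, 15 of the 16 mitochondrial genes that passed the filter on low counts were higher with the OVA label and 0 were lower (edgeR quasi-likelihood F test, Benjamini-Hochberg adjusted p under 0.05 over 17418 genes). In that comparison 79.4% of all genes tested were called in either direction and 42.0% were called higher, so being called is common here and the size and common direction are what the members' values show. Their median log2 fold change was 1.78, against 0.04 over all genes tested. The exception, mt-Ts1 (transfer RNA for serine), rests on 11 to 27 counts per library over the series. In CD8-selected cells, 1 of 15 tested genes was higher and 12 were lower with the OVA label, where 46.1% of 16536 genes were called, 23.7% higher and 22.4% lower. The median there was -0.28, against -0.01 over all genes tested.

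Both ribosomal RNAs rose with the OVA label in tumor cells and fell in CD8-selected cells. mt-Rnr2, the RNA of the large mitochondrial ribosomal subunit, had 855, 816 and 697 CPM in the tumor libraries with the B16-F10 label and 4489, 4566 and 4535 CPM in those with the OVA label. It had 2560, 2439 and 2502 CPM in CD8-selected cells labelled B16-F10 and 1211, 1224 and 1213 CPM in those labelled OVA. All libraries of one label thus lay apart from those of the other, in opposite directions in the 2 fractions: the log2 fold change was 2.69 (SE 0.0401, edgeR adjusted p 6.61e-25) in tumor cells and -0.98 (SE 0.0142, adjusted p 1.35e-27) in CD8-selected cells. mt-Rnr1, the RNA of the small subunit, was at 180 ± 12.4, 1036 ± 6.46, 577 ± 6.27 and 366 ± 2.96 CPM. It changed by a log2 fold change of 2.69 in tumor cells, close to mt-Rnr2, and of -0.60 in CD8-selected cells. The ratio of mt-Rnr2 to mt-Rnr1 counts was 4.37 ± 0.163, 4.37 ± 0.0113, 4.33 ± 0.0596 and 3.32 ± 0.0261. It was lower in every CD8-selected library labelled OVA than in any other library, with an exact permutation p of 0.1 (adjusted 0.2) within that fraction. The exact permutation p for the difference of its OVA effects between fractions was 0.05. Per the labels RNA was bound to poly-T beads, and the ribosomal RNAs' capture in the 4 groups was not tested.

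Complex I, the NADH dehydrogenase, has 7 mitochondrial subunits. mt-Nd1, in its membrane arm, had 628, 629 and 604 CPM in tumor cells with the B16-F10 label against 3436, 3543 and 3497 CPM with the OVA label, and 1645, 1546 and 1643 against 1415, 1435 and 1424 CPM in CD8-selected cells. Its log2 fold change of 2.66 (SE 0.0167) in tumor cells was nearly that of the adjacent ribosomal RNAs, while in CD8-selected cells it fell by only 0.12 (SE 0.0166, edgeR adjusted p 7.57e-07). mt-Nd5, a proton-pumping subunit, had 707, 725 and 692 CPM against 1575, 1645 and 1606 CPM in tumor cells, and 1004, 968 and 990 against 545, 549 and 542 CPM in CD8-selected cells. Its log2 change of 1.35 (SE 0.0177) was the smallest among the called members in tumor cells, and its fall of 0.80 (SE 0.0149, edgeR adjusted p 5.83e-25) was among the larger ones in CD8-selected cells. mt-Nd2 and mt-Nd4, the other pump subunits, changed by 1.83 and 1.54 in tumor cells and by -0.53 and -0.55 in CD8-selected cells. mt-Nd4l changed by 1.59 and -0.28.

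mt-Nd6 fell furthest in CD8-selected cells. It had 233, 230 and 237 CPM with the B16-F10 label and 105, 110 and 109 CPM with the OVA label, a log2 fold change of -1.05 (SE 0.0228, edgeR adjusted p 1.69e-23). In tumor cells it rose from 132, 130 and 125 CPM to 290, 322 and 307 CPM, a log2 fold change of 1.41 (SE 0.0302, adjusted p 8.06e-22). The libraries of the 2 labels did not overlap in either fraction.

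Complex III holds a single mitochondrial subunit, cytochrome b. Its gene mt-Cytb was the only member called higher with the OVA label in CD8-selected cells, at 2868, 2716 and 2824 CPM against 3066, 3189 and 3121 CPM (log2 fold change 0.21, SE 0.0154, edgeR adjusted p 4.99e-12). In tumor cells it went from 2529, 2493 and 2396 CPM to 5847, 6056 and 5953 CPM (1.44, SE 0.0169, adjusted p 7.52e-27). Its 3 CD8-selected libraries labelled OVA thus lay above those labelled B16-F10 while most members lay below. mt-Cytb and mt-Nd5 come from the same precursor with mt-Nd6 between them on the other strand. Per base, mt-Cytb counts were 5.57 ± 0.119, 5.90 ± 0.0260, 4.53 ± 0.0462 and 9.14 ± 0.150 times those of mt-Nd5. The 2 labels were therefore close in tumor cells, though without overlap (5.48 to 5.70 against 5.87 to 5.92), and far apart in CD8-selected cells.

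Complex IV, cytochrome c oxidase, has 3 mitochondrial subunits and drew more mitochondrial counts than any other complex. mt-Co1, the catalytic core, had 5677, 5722 and 5485 CPM against 24799, 25064 and 24954 CPM in tumor cells (log2 fold change 2.32, SE 0.0143, edgeR adjusted p 4.04e-32). In CD8-selected cells it had 12823, 12458 and 12841 against 11706, 11790 and 11681 CPM (-0.06, SE 0.00998, adjusted p 1.63e-05). The second difference is small but without overlap. Its fold change is on TMM scaling and its CPM on library totals, so the 2 do not give the same size. mt-Co3 was at 1205 ± 15.6, 5872 ± 66.1, 3099 ± 82.1 and 2703 ± 23.01 CPM, and mt-Co2 at 1961 ± 111, 6077 ± 132, 3187 ± 208 and 2645 ± 160 CPM. They changed by 2.45 and 1.80 in tumor cells and by -0.14 and -0.21 in CD8-selected cells on the log2 scale. Per kilobase of transcript and on the mitochondrial rows alone, mt-Co1 ranked first and mt-Co2 next in every group, at 3643 ± 81.5 and 2867 ± 163 CPM per kilobase in tumor cells labelled B16-F10 and 16142 ± 86.2 and 8885 ± 192 in those labelled OVA. mt-Co3 ranked sixth in tumor cells labelled B16-F10 and in the third place in the other groups. With the nuclear copies added, mt-Atp6 of complex V ranked first in tumor cells labelled B16-F10 (5036 ± 162 CPM per kilobase, against 3810 ± 95.4 for mt-Co1) and second behind mt-Co1 in the other groups, and mt-Co2 ranked in the third place in all 4.

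Complex V takes 2 proteins of the mitochondrial genome, both in its membrane part. mt-Atp6, part of the proton channel, was at 1489 ± 28.97, 4512 ± 204, 2416 ± 97.0 and 1753 ± 63.7 CPM and changed by 1.77 in tumor cells and -0.40 in CD8-selected cells. mt-Atp8 was at 411 ± 7.95, 1136 ± 43.5, 489 ± 22.2 and 487 ± 20.2 CPM. It rose by 1.63 in tumor cells (SE 0.0214, edgeR adjusted p 5.50e-26), and its log2 fold change in CD8-selected cells was 0.05 (SE 0.0254, adjusted p 0.129), with overlapping libraries and a sign that turned with scaling to library totals. Without replicate 1 of either label it passed the test, at 0.08 and 0.07.

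**Figure D2:**
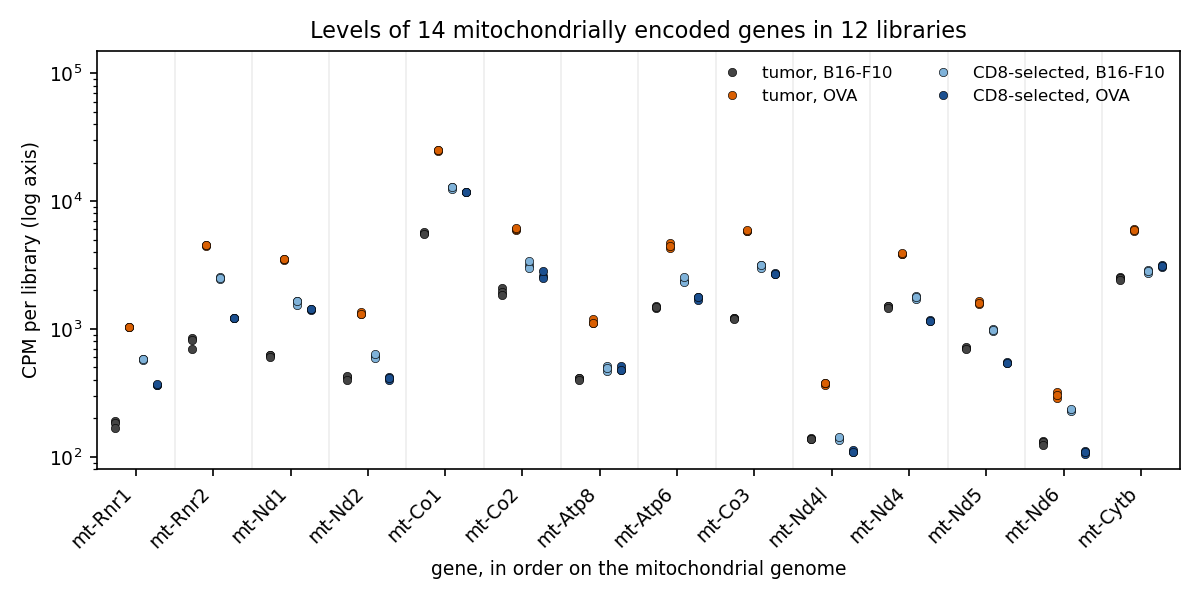
CPM per library (vertical log axis) of the 2 ribosomal RNA genes and 12 protein-coding genes in their order on the mitochondrial genome, 12 points a gene, coloured by group (mt-Nd3 is left out because most of its values are 0). The tumor libraries labelled OVA are highest for all genes shown, and mt-Cytb is the gene whose CD8-selected OVA libraries lie above the B16-F10 ones.

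**Figure D3:**
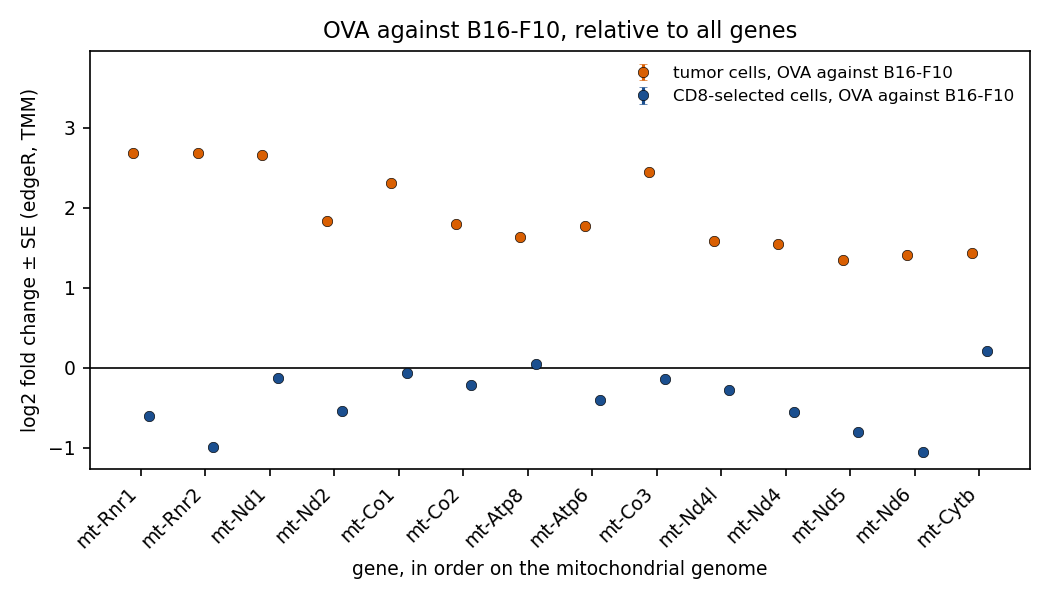
Log2 fold change ± SE (edgeR, TMM scaling; bars are mostly smaller than the points) of OVA against B16-F10 for the same 14 genes in tumor cells and CD8-selected cells. Tumor values run from 1.35 at mt-Nd5 to 2.69 at the ribosomal RNAs, and CD8-selected values from -1.05 at mt-Nd6 to 0.21 at mt-Cytb.

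The transfer RNA rows were nearly empty. The 22 genes held 269 of 9655704 mitochondrial counts over all libraries, with 15 to 36 counts a library, and 12 of the 22 had 0 counts in every library, which allows at most 0.0116 CPM over the pooled total (counting error only). mt-Ts1 held 192 of the 269 counts, or 71.4%, followed by mt-Tp (proline) with 19 and mt-Tl1 (leucine) with 16. mt-Ts1 was at 0.674 ± 0.193, 0.642 ± 0.206, 0.791 ± 0.156 and 0.911 ± 0.255 CPM, within the spread of the libraries. As background, a mature transfer RNA is shorter than the fragments that such a kit keeps and has no poly(A) tail.

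The mt-Nd3 row, for the last complex I subunit, held fewer counts than the row of its nuclear copy in every library. The mt-Nd3 row had 0 counts in all 3 tumor libraries labelled B16-F10 and 13.2, 6.45 and 21.7 CPM in those labelled OVA. That is at least 302-fold higher against a floor of 3 counts over the B16-F10 group. The bound is for this row alone and depends on how reads were divided between it and the copy row. In CD8-selected cells it had counts in 1 library of each label, 6.71 CPM in B16-F10 replicate 3 and 2.84 CPM in OVA replicate 3. Gm28438, which shares all but 1 base with it, had counts in all 12 libraries, at 35.4 ± 2.22, 164 ± 6.51, 76.2 ± 5.61 and 56.5 ± 0.908 CPM. The sum of both rows was 35.4 ± 2.22, 177 ± 3.29, 78.4 ± 1.74 and 57.4 ± 2.41 CPM, and fitted as a single row it changed by 2.49 in tumor cells and -0.39 in CD8-selected cells (log2).

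The division of counts between a gene and its copy varied between libraries. Atp6-ps held 40.0% to 58.8% of the counts of mt-Atp6 and itself, and Gm28661 held 6.77% to 24.8% of those of mt-Co2 and itself. For mt-Co3 in tumor cells labelled OVA, the SD of the mitochondrial row was 66.1 CPM and that of its sum with Gm28437 was 5.45 CPM. For mt-Co2 in the same group it was 132 CPM alone and 72.3 CPM with the copy. Whether reads on the copy rows came from mitochondrial or nuclear RNA cannot be told apart in these counts. With the copies added, mt-Atp6 and mt-Co2 changed by 1.56 and 1.93 in tumor cells and by -0.14 and -0.06 in CD8-selected cells, and the count of called members was again 15 higher of 16 in tumor cells and became 1 higher and 13 lower of 16 in CD8-selected cells. Gm10222, the copy of mt-Nd4l, had 0 counts in every library, and Gm29216, which covers 31.3% of mt-Co1, held 2.85% to 5.33% of their joint counts.

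**Figure D4:**
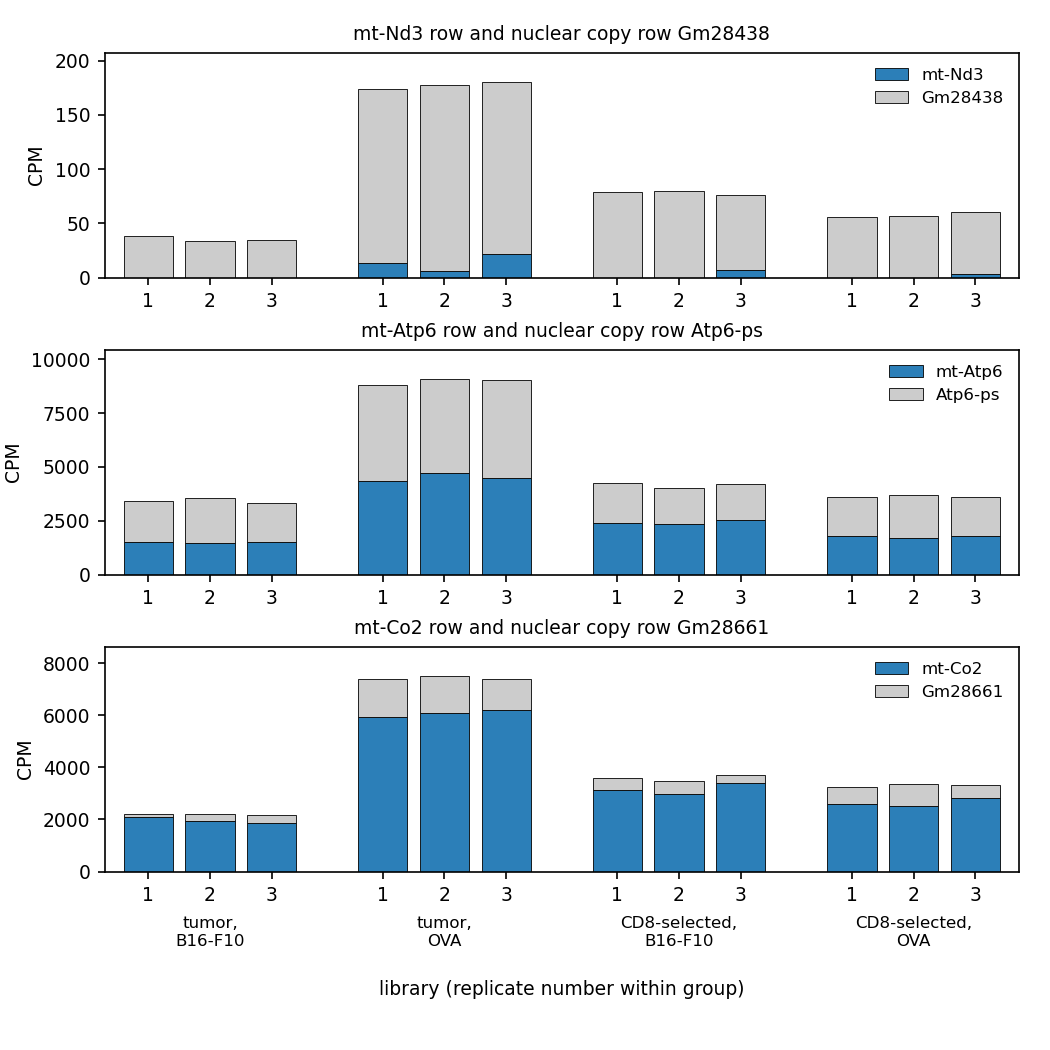
CPM per library, stacked, of mt-Nd3, mt-Atp6 and mt-Co2 (lower part) and of the nuclear copy row of each (upper part), 1 panel a gene, 3 libraries a group. The mt-Nd3 row is empty in 7 of 12 libraries while Gm28438 has counts in all, and Atp6-ps holds 40.0% to 58.8% of its pair.

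The make-up of the mitochondrial counts was then compared by setting each library's size to its mitochondrial total, so that a value says how a member's part of that total differed. In tumor cells all 16 tested members differed (edgeR adjusted p under 0.05): 6 were higher and 10 lower with the OVA label. Of all 17418 genes, 96.4% were called under this scaling, 15.9% higher and 80.5% lower, since it moves every nuclear gene by the shift in the mitochondrial total. The higher ones were mt-Rnr1 and mt-Rnr2 (0.64 each), mt-Nd1 (0.61), mt-Co3 (0.40), mt-Co1 (0.27) and mt-Nd3. Among the lower ones were mt-Nd5 (-0.70), mt-Nd6 (-0.64), mt-Cytb (-0.61) and mt-Nd4 (-0.51). The part held by ribosomal RNA was 5.49% ± 0.389 of the mitochondrial counts with the B16-F10 label and 8.56% ± 0.0302 with the OVA label.

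In CD8-selected cells 5 members were higher and 8 lower within the mitochondrial total, of 15 tested, where 55.8% of all genes were called, 47.0% higher and 8.77% lower. mt-Cytb (0.41) and mt-Atp8 (0.25) led the higher ones, with mt-Co1 (0.14), mt-Nd1 (0.08) and mt-Co3 (0.06). With the protein-coding members as the reference in place of the whole mitochondrial total, the 5 higher and 8 lower became 3 and 8, and mt-Nd1 (0.02, edgeR adjusted p 0.533) and mt-Co3 (0.00112, adjusted p 0.975) were not called. The call of mt-Nd1 was also lost without OVA replicate 2, and that of mt-Co3 without any library of the fraction except B16-F10 replicate 2 (edgeR adjusted p 0.0562 to 0.173). mt-Nd6 (-0.86), mt-Rnr2 (-0.79), mt-Nd5 (-0.60) and mt-Rnr1 (-0.40) led the lower ones, and mt-Nd4l (-0.08) lost its call without replicate 1 or 3 of either label. The part held by ribosomal RNA was 9.29% ± 0.140 with the B16-F10 label and 5.70% ± 0.0288 with the OVA label, opposite in direction to tumor cells. The difference between the 2 effects, -6.66 percentage points, had an exact permutation p of 0.005, the smallest that 400 relabellings allow. Here the mitochondrial rows alone were used, and with the nuclear copies added the values of mt-Atp6 (-0.21) and mt-Co2 (-0.01) became 0.03 and 0.11, and the call of mt-Co3 was lost (0.02).

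By complex, the part of the mitochondrial counts went the same way with the OVA label in both fractions for complexes I and IV, and opposite ways for complex III. Complex I genes held 19.9% ± 0.184, 16.9% ± 0.0652, 16.2% ± 0.0927 and 13.5% ± 0.104 of the mitochondrial counts. Complex IV genes held 49.8% ± 0.0582, 56.7% ± 0.392, 57.3% ± 0.156 and 61.5% ± 0.160. Complex I was thus lower and complex IV higher in every library with the OVA label than in any of the same fraction without it, both on the mitochondrial rows and with the nuclear copies added. Not all members of a complex went that way. Within the mitochondrial total, mt-Nd1 of complex I was higher with the OVA label (0.61 in tumor and 0.08 in CD8-selected cells). mt-Co2 of complex IV was lower in tumor cells (-0.25) and not called in CD8-selected cells (-0.01). The parts add up to the whole, so a larger part of 1 complex lowers the rest. Complex III, whose single gene is mt-Cytb, held 14.01% ± 0.0212, 9.15% ± 0.0647, 8.46% ± 0.103 and 11.2% ± 0.199, lower with the OVA label in tumor cells and higher in CD8-selected cells. For complex V the direction in CD8-selected cells depended on the copies. Its genes held 10.8% ± 0.282, 8.68% ± 0.292, 8.77% ± 0.167 and 8.07% ± 0.163 on the mitochondrial rows, lower with the OVA label in both fractions. With the copies added they held 19.1% ± 0.277, 14.05% ± 0.115, 12.9% ± 0.149 and 13.4% ± 0.0685, lower in tumor cells and higher in CD8-selected cells without overlap.

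**Figure D5:**
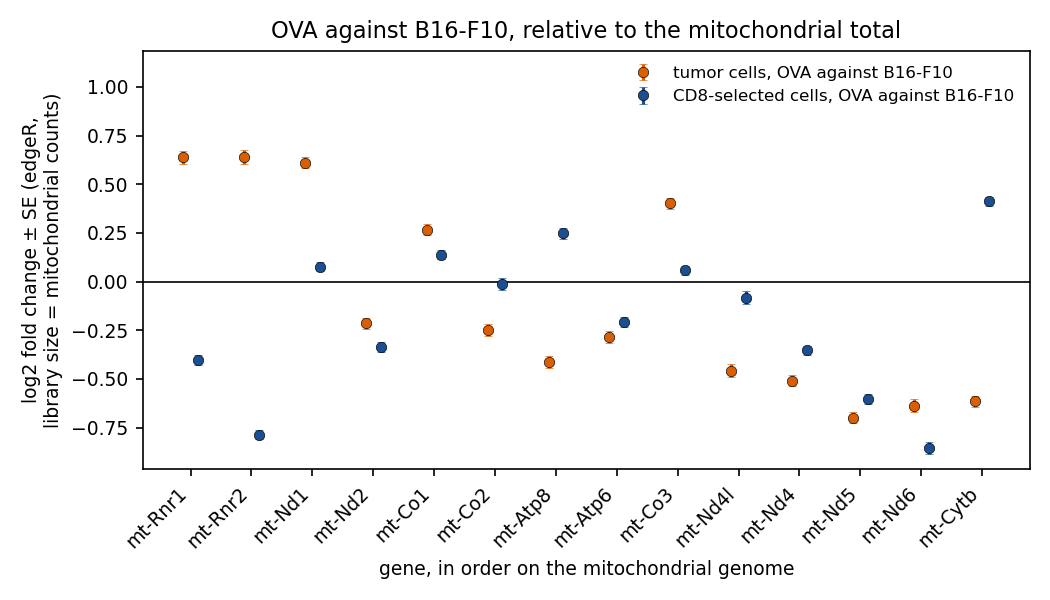
Log2 fold change ± SE (edgeR, library size set to the mitochondrial counts) of OVA against B16-F10 for 14 genes in genome order, in tumor cells and CD8-selected cells. The ribosomal RNAs lie at 0.64 in tumor cells and at -0.40 and -0.79 in CD8-selected cells, while mt-Nd5 and mt-Nd6 are below 0 in both.

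As mt-Nd6 lies on the other strand, its counts were set against those of the other protein-coding members. Since the kit does not mark strand, its row may include antisense reads and does not measure the other strand alone. The mt-Nd6 counts came to 0.779% ± 0.00517, 0.517% ± 0.0216, 0.782% ± 0.0105 and 0.415% ± 0.00783 of those of the other protein-coding members. Libraries labelled OVA were lower in both fractions without overlap, each with an exact permutation p of 0.1 (adjusted 0.133). The difference between the effects was -0.105 points, with an exact permutation p of 0.595. That test cannot decide whether the effects differ, since relabelling within fractions puts the effects themselves into its spread. The choice of reference mattered in tumor cells. Against its neighbours mt-Cytb and mt-Nd5 alone, mt-Nd6 stood at 4.05% ± 0.0234 and 4.05% ± 0.140 in tumor cells, which overlapped, and at 6.16% ± 0.123 and 2.95% ± 0.0306 in CD8-selected cells.

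CD8-selected and tumor cells differed in opposite directions for the 2 labels. With the B16-F10 label, 15 of 16 tested members were higher in CD8-selected cells and 0 lower (85.9% of 18562 genes called, 45.5% higher and 40.4% lower), led by mt-Rnr1 (1.92), mt-Rnr2 (1.91), mt-Nd1 (1.62) and mt-Co3 (1.61). The smallest called changes were those of mt-Nd4l (0.25) and mt-Cytb (0.43), and the call for mt-Nd3 rested on CD8-selected replicate 3 alone (adjusted p 1.0 without it). With the OVA label, 15 of 16 were lower and 0 higher (77.5% called, 37.3% higher and 40.2% lower), from -0.80 for mt-Cytb to -1.77 for mt-Rnr2 among those with counts in all libraries. The comparison over both labels called 15 of 16 members as having a lower OVA effect in CD8-selected than in tumor cells (69.0% of genes called, 27.7% higher and 41.3% lower).

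With TMM scaling, the nuclear partners of these genes did not rise with them in tumor cells, a direction that turned when libraries were scaled on melanoma markers (values below). Of the nuclear complex I subunits, 0 were higher and 35 lower of 36 tested with the OVA label, with a median log2 fold change of -0.60. For complex II it was 0 and 4 of 4, for complex III 0 and 9 of 9, for complex IV 0 and 11 of 11 and for complex V 0 and 18 of 18, with medians of -0.75, -0.72, -0.78 and -0.73. Over all genes tested, 37.4% were called lower. Examples are Ndufa4 (317 ± 2.02 against 101 ± 1.96 CPM, log2 fold change -1.47), a subunit of complex IV despite its name, Cox7b (228 ± 3.68 against 78.7 ± 2.47 CPM, -1.36) and Atp5mc3, of the rotating ring of complex V (456 ± 5.97 against 171 ± 0.0848 CPM, -1.24). Of 78 mitochondrial ribosomal proteins, 6 were higher and 53 lower.

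Genes of mitochondrial transcription and RNA handling were also called lower more often than higher, but less uniformly than the respiratory subunits. In the list for DNA maintenance and transcription 2 were higher and 10 lower of 18, and in that for RNA processing, modification and decay 4 and 25 of 34. Of all genes tested, 42.0% were called higher and 37.4% lower. Polrmt, the mitochondrial RNA polymerase, was at 48.6 ± 1.37 CPM with the B16-F10 label and 25.1 ± 1.20 CPM with the OVA label (-0.79), and Tfam, which packages the genome and starts its transcription, at 58.1 ± 1.46 and 36.8 ± 0.941 CPM (-0.49). Slirp, of the complex that protects mitochondrial messengers, fell by 0.37, while its partner Lrpprc had a log2 fold change of 0.09 (SE 0.0349, edgeR adjusted p 0.0207) although its CPM ran from 71.2 ± 2.55 to 67.8 ± 2.58. Ppargc1a codes for a coactivator of mitochondrial biogenesis and had a log2 fold change of -0.76, from 644 ± 14.5 to 339 ± 8.27 CPM.

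The direction of these nuclear lists in tumor cells depended on the scaling and that of the called mitochondrial genes did not. When the libraries were scaled on the 12 melanoma markers, the median of all genes tested moved from 0.04 to 1.10 and the calls from 7322 higher and 6516 lower to 15425 and 618. The median of the nuclear complex I list became 0.47, with 31 of 36 higher and 2 lower, and that of the complex IV list 0.29, with 6 of 11 higher and 3 lower. Under the same scaling all 16 tested mitochondrial genes were higher, with a median of 2.85.

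In CD8-selected cells the counts of nuclear partners are read against the 22.4% of all genes tested that were called lower and the 23.7% called higher. Of nuclear complex I subunits 0 were higher and 9 lower of 36 with the OVA label (median -0.06), and of complex V 0 and 8 of 18 (-0.06). Polrmt (0.02, adjusted p 0.832), Slirp (0.13, adjusted p 0.321) and Lrpprc (0.14, adjusted p 0.0712) did not pass the edgeR test, and Tfam had a log2 fold change of 0.14 (adjusted p 0.0367). Of 14 genes of the mitochondrial unfolded protein response and proteases, 5 were higher and 1 lower, in a comparison where 46.1% of all genes were called, among them Hspd1, a chaperone (0.19), and Afg3l2, a protease (0.38). Lars2, the leucyl-tRNA synthetase, stood apart in both fractions, at 575 ± 12.6, 1588 ± 21.5, 1465 ± 33.1 and 599 ± 8.63 CPM, with log2 fold changes of 1.64 and -1.23.

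Rows that reflect the make-up of the RNA also differed between the groups. Rn18s-rs5, a row for cytoplasmic ribosomal RNA sequence, took 0.559% ± 0.00696, 1.21% ± 0.0108, 1.05% ± 0.0319 and 0.316% ± 0.00228 of all counts. It was thus higher with the OVA label in tumor cells and lower in CD8-selected cells, as were the mitochondrial ribosomal RNAs and the Lars2 row. A link between the Lars2 row and the ribosomal RNA rows was not tested. The nuclear-retained RNA Malat1 was at 454 ± 28.8, 429 ± 4.22, 595 ± 3.31 and 495 ± 6.20 CPM and Neat1 at 11.2 ± 0.404, 54.4 ± 0.466, 31.5 ± 0.772 and 39.7 ± 0.496 CPM. Leaving Rn18s-rs5 out of the totals gave mitochondrial shares of 1.77%, 6.58%, 3.35% and 2.79%. The part of poly(A) selection, RNA integrity or the mix of cells in the mitochondrial values was not tested.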

How the data were processed

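The authors deposited raw counts per Ensembl gene for 12 libraries, with no normalization. Alignment to GRCm39 with HISAT2 2.0.5 and counting with featureCounts 1.6.0 are named in the submitters' processing notes. Per the labels' protocols, mRNA was bound to poly-T beads and libraries were made with the NEBNext Ultra kit, which does not mark strand. The settings for reads mapping to several places or to overlapping genes are not given in the sources used here.

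The 12 libraries held between 15494683 and 33263730 counts. CPM were taken on the library total and are given as mean ± SD of 3 libraries. Fold changes are on TMM scaling unless another is named, so they can differ from the ratio of the CPM beside them. Tests used edgeR 4.0.16 in R 4.3.3 on the whole table (filterByExpr, TMM, quasi-likelihood F test, Benjamini-Hochberg, threshold 0.05), fitted on the 6 libraries of a fraction for OVA effects and on all 12 otherwise. Standard errors were derived from the F statistic. Single values per library were compared by exact permutation. A gene with 0 counts in a group is given as a bound against a floor of 3 counts. The scripts were tested on simulated data.

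Nuclear copies were found with blastn 2.17.0 among GENCODE M21 transcripts (GRCm38, another build, so no coordinates are given), to which all 37 rows matched. Each library was kept as its own, although replicates differed little. Among genes other than the members at 100 CPM or more, the median coefficient of variation (SD in percent of the mean) was 1.37% to 1.61% by group. Over all genes the mean spread was only somewhat above counting error, so it does not show that the libraries come from separate mice. The mean chi-square per gene between pairs is 1 for counting error alone. It was 1.51 to 1.77 over all genes and 10.2 to 60.5 over the mitochondrial members. Medians were 0.557 to 0.606 over all genes and 0.584 to 35.1 over the members, so in some pairs the high means rested on part of the members. Correlations of same-numbered libraries' deviations ran from -0.056 to 0.198 and were not all above 0.1, so the numbers were not taken as pairs. Every mitochondrial gene past the filter could be named, with up to 4 members per nuclear list by smallest adjusted p and fixed anchors (Ppargc1a, Tfam, Polrmt, Lrpprc, Slirp, Rn18s-rs5, Malat1, Neat1). The members and lists were chosen with earlier results of these data known. Alternatives were other scalings and filters, the protein-coding members as the reference within the mitochondrial total, DESeq2 1.42.0, limma-voom (limma 3.58.1), a replicate block, leaving out each library and, chosen after seeing the data, adding the nuclear copies.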

Additional observations from a re-analysis of the deposited data

Results flagged for a closer look

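The OVA effect differed between the fractions for 15 mitochondrial genes, by an interaction term over all 12 libraries in edgeR (adjusted p under 0.05). As the log2 effect in CD8-selected cells minus that in tumor cells, the differences were -3.29 for mt-Rnr1 and -3.67 for mt-Rnr2, the ribosomal RNAs. For complex I genes they were -2.78 for mt-Nd1, -2.37 for mt-Nd2, -2.10 for mt-Nd4, -1.88 for mt-Nd4l, -2.15 for mt-Nd5 and -2.46 for mt-Nd6. They were -1.23 for mt-Cytb, -2.38 for mt-Co1, -2.01 for mt-Co2, -2.60 for mt-Co3, -1.59 for mt-Atp8 and -2.18 for mt-Atp6. For mt-Nd3, whose fitted size depends on groups at or near 0, the edgeR adjusted p was 0.000165, and without CD8-selected B16-F10 replicate 3 it was 1.0. Of all genes tested, 69.0% were called in this comparison.

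The mitochondrial share of counts (difference of effects -5.28 percentage points) and the ribosomal RNA part of the mitochondrial counts (-6.66 points) differed between the fractions in the same way, each with an exact permutation p of 0.005 over 400 relabellings. Those relabellings take the label as without effect in either fraction. The part of the cell mix and of RNA quality, whose values stand in the report, was not tested.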

How the results depend on the processing

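The counts of called members stayed within 1.5 times of those reported under scaling by median ratios or by library totals and with other filters. The same held for DESeq2, limma-voom, the added nuclear copies and leaving out each library. The mitochondrial share is taken on the library total, so those scalings, filters and fits do not touch it. Its direction stayed the same with the copies added, with each library left out, and for the protein-coding members alone. It also stayed the same on totals without Rn18s-rs5 or with only the rows that have a symbol. Scaling to library totals moved the median of all genes from 0.04 to -0.13 in tumor cells and from -0.01 to -0.06 in CD8-selected cells, and changed the calls over all genes in CD8-selected cells from 3912 higher and 3711 lower to 3091 and 4885. The difference in mt-Nd6 share between CD8-selected and tumor cells labelled B16-F10, 0.00273 points and within the spread, ran from -0.00318 to 0.00679 with 1 library left out. With the copies added it was 0.0333 points (0.711% against 0.678%), without overlap and with an exact permutation p of 0.1, the smallest possible.

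No paired block was used, since the labels give same-numbered libraries only a number in common and their deviations were not all correlated above 0.1: with the replicate block, members called were 15 higher of 16 in tumor cells and 1 higher and 12 lower of 15 in CD8-selected cells, as without it. Within the mitochondrial total the block made 5 higher and 8 lower into 4 and 8, with mt-Co3 at an adjusted p of 0.0717 in edgeR. The protein-coding members as reference made them 3 and 8.

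Single genes turned sign in 10 of 1825 refits, and counts of called genes in the nuclear lists moved by over 1.5 times in 21 of 1248. mt-Ts1 in tumor cells (0.09) became -0.0817 with library totals and ran from -0.104 to 0.315 with 1 library left out, and its difference between fractions from -0.0261 to 0.405. mt-Atp8 in CD8-selected cells became -0.00845 with library totals. Within the mitochondrial total in CD8-selected cells, mt-Co2 ran from -0.0601 to 0.0236 with 1 library left out and became 0.114 with the copies added, with which mt-Atp6 became 0.0299. mt-Nd4l between fractions labelled B16-F10 lost its call with library totals (0.01, adjusted p 0.799 in edgeR), and so did mt-Nd3 there in limma-voom (adjusted p 0.329) and between fractions labelled OVA in DESeq2 (adjusted p 0.408). The cause was not tested. Transfer RNA counts are too low for any comparison.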
